A study of Arabidopsis thaliana with 4 samples.

Results

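COR15A (AT2G42540) and COR15B (AT2G42530) are adjacent genes on Arabidopsis chromosome 2 that encode cold-induced chloroplast proteins. Each was read by 1 probe set, 263497_at for COR15A and 263495_at for COR15B, so the pair makes up 2 of the 13286 genes with a named probe set and 2 of the 22746 plant probe sets on the Affymetrix ATH1 array. RefSeq lists 4 transcripts for COR15A and 1 for COR15B, and the sources used here do not say which of them the COR15A probe set reads. The probe sets were taken by gene name, and the pair was chosen with its signals on these same arrays in view. The genotype contrast of both genes is therefore given as a description, with no test.

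RNA came from whole seedlings of the ein3-1eil1-1 double mutant (called ein3 eil1 here, 2 arrays) and of the wild type, written Col-o in the series title (2 arrays). The mutant carries lesions in EIN3 (AT3G20770) and EIL1 (AT2G27050), transcription factors of ethylene signalling. Seeds of both genotypes had 3 days of cold on MS medium and 4 h of light to start germination, and seedlings then grew for 4 days at 22 °C in darkness. The cold period was thus common to both genotypes and ended before growth began. The contrast addresses which transcripts differ in etiolated seedlings when both factors are mutated.

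COR15A and COR15B are encoded in the nucleus, and their proteins are imported into the chloroplast stroma. They belong to the late embryogenesis abundant (LEA) proteins, are largely disordered in water, fold when water is withdrawn, and protect chloroplast membranes during freezing. In the cold, CBF transcription factors bind the C-repeat element of such promoters, and the genes switched on together are known as the CBF regulon. In Arabidopsis, EIN3 has been described as a repressor of CBF genes. The CBF genes themselves had no probe set named for 1 gene and were not analysed here.

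The arrays differed in brightness. Median deposited signals were 50.8 and 85.2 on the ein3 eil1 arrays and 49.5 and 52.3 on the wild-type arrays, and quantile normalisation was applied for that reason. Normalised values below are log2(signal + 3), and a difference is ein3 eil1 minus wild type on that scale. Tests covered the 14047 probe sets at or over the 40th percentile of plant probe sets on at least 2 of the 4 arrays, both COR15 probe sets among them through the ein3 eil1 arrays alone. In each genotype 1 array has a title with the words biological rep, which gives 2 pairs of 1 ein3 eil1 and 1 wild-type array. The 27 Bacillus control probe sets followed these pairs, with mean normalised levels of 7.95 (ein3 eil1) and 7.86 (wild type) in pair 1 and of 6.40 and 6.37 in pair 2. Differences are therefore also given within each pair. The labels name no batch, and the part of any batch in these results was not tested. EIN3 was lower in ein3 eil1, with deposited signals of 76.7 and 221.2, against 765.9 and 992.3 in wild type, a difference of -3.12 (SE 0.35, limma adjusted p = 0.012, and 0.0504 without a filter on low signals). PORB, a protochlorophyllide oxidoreductase, ICL, a glyoxylate cycle enzyme, and PYK10, a root and hypocotyl beta-glucosidase, were read as seedling markers. They were bright on all 4 arrays, with deposited signals between 818.2 and 13741, which is no check of growth in darkness. PORB had normalised signals of 11.25 and 11.80 in ein3 eil1, against 12.21 and 13.10 in wild type, a difference of -1.13 (SE 0.33, limma adjusted p = 0.41, and 0.0028 with the title pair as a block), with -0.96 in pair 1 and -1.29 in pair 2. ICL differed by -0.02 (SE 0.48), with opposite signs in the pairs, -0.44 in pair 1 and 0.41 in pair 2. PYK10 differed by -0.02 (SE 0.19), with -0.03 in pair 1 and 0.0 in pair 2. The part of PORB or of the seedling stage in the COR15 result was not tested. PORA and MLS had no named probe set and were not analysed here.

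COR15A was well inside the signal range in ein3 eil1 and close to its bottom in wild type. Its deposited signals were 172.7 and 170.8 in ein3 eil1, against 2.9 and 2.9 in wild type. Both ein3 eil1 arrays were high and both wild-type arrays low, and the genotypes did not overlap. The ein3 eil1 signals stood at percentiles 76.2 and 64.6 of their arrays, and the wild-type signals at percentiles 12.5 and 9.32. After normalisation COR15A measured 7.64 and 6.86 in ein3 eil1, against 2.74 and 2.47 in wild type. The means were 7.25 ± 0.55 in ein3 eil1 and 2.60 ± 0.19 in wild type (SD, n = 2 each), a difference of 4.65 (SE 0.54). Within the pairs of arrays the difference was 4.90 in pair 1 and 4.39 in pair 2.

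The size of the COR15A difference depended on what was added to such dim wild-type signals. It was 5.21 with 1 added and 3.12 with 16 added, because a larger addition raises the wild-type values most. No detection calls came with the signals used here, so whether the wild-type signals differ from background is unknown. As a figure that does not rest on those signals, the ein3 eil1 mean lay 2.07 log2 units, or 4.20-fold, above the 40th percentile (5.18). Quantile normalisation gives all arrays about the same 40th percentile, so this figure describes a place within the mutant arrays and no genotype contrast. That the mean lay above the line was fixed, because COR15A passed the filter through the ein3 eil1 arrays alone. In bulk RNA, fewer cells with a transcript and less transcript per cell cannot be told apart.

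COR15B was higher in ein3 eil1 by less. Its deposited signals were 101 and 96.3 in ein3 eil1, against 21.2 and 26.1 in wild type. The genotypes again did not overlap, and the ein3 eil1 arrays lay above the 40th percentile and the wild-type arrays below it. The place of the ein3 eil1 arrays is what let COR15B pass the filter. The percentiles were 65.1 and 52.4 in ein3 eil1, against 34.8 and 36.2 in wild type. Normalised signals were 6.89 and 6.08 in ein3 eil1, against 4.80 and 4.90 in wild type. The means were 6.49 ± 0.57 in ein3 eil1 and 4.85 ± 0.07 in wild type (SD, n = 2 each), a difference of 1.64 (SE 0.41). The difference was 2.09 in pair 1 and 1.18 in pair 2. It was 1.71 with 1 added and 1.30 with 16 added, a narrower range than for COR15A.

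**Figure D1:**
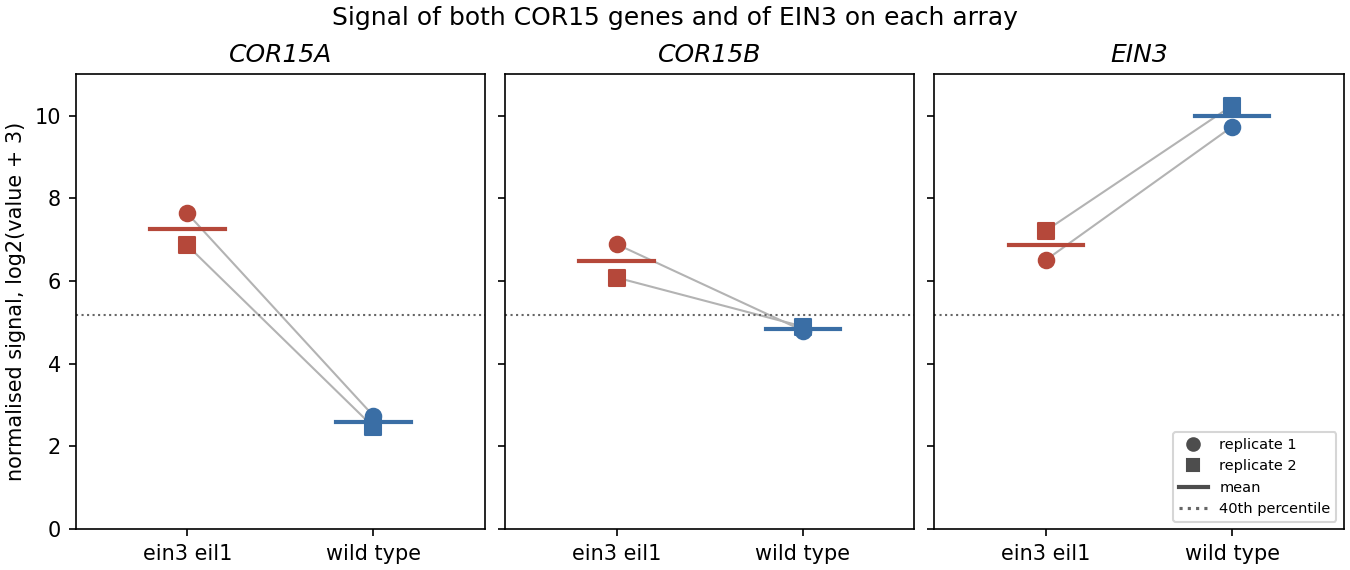
Normalised signal, log2(value + 3), of COR15A, COR15B and EIN3 on each of the 4 arrays, with ein3 eil1 left and wild type right. Points are arrays, short bars are means, grey lines join the arrays of a title pair, and the dotted line is the 40th percentile; both COR15 genes were higher in ein3 eil1, EIN3 was lower, and the wild-type COR15A values of 2.74 and 2.47 lay far below the dotted line.

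The ein3 eil1 arrays had the same order for both COR15 probe sets, and the wild-type arrays did not. In ein3 eil1, replicate 1 was above replicate 2 by 0.78 for COR15A and by 0.81 for COR15B. In wild type the same gap was 0.27 for COR15A and -0.10 for COR15B. The ein3 eil1 gap came with the normalisation, since the deposited signals of the 2 mutant arrays were nearly equal for each gene while replicate 2 was the brighter array as a whole. Without normalisation the differences within the pairs were 4.90 and 4.88 for COR15A and 2.1 and 1.77 for COR15B. Under that deposited scaling the mean differences were 4.89 and 1.94, and the median of all tested probe sets stood at 0.40. Relative to that median they were 4.49 for COR15A and 1.54 for COR15B, close to the 4.64 and 1.63 found relative to the median after quantile normalisation.

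The COR15A difference exceeded that of COR15B by 3.01 log2 units, by 2.81 in pair 1 and by 3.21 in pair 2. The excess was 3.50 with 1 added and 1.82 with 16 added, so its size rests on the dim wild-type COR15A signals. This compares differences and not levels, because the signals of separate probe sets have no common scale. The genes are related copies, and cross-hybridisation between their probe sets was not tested.

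Among all 14047 tested probe sets, COR15A had the second largest positive difference, below AT5G37990 alone, and COR15B held place 78. COR15A also held place 2 with 1 or 16 added, although the sizes of both leading differences depend on that constant, and COR15B then held places 83 and 88. The place of COR15B depended more on single arrays. It was 54 without ein3 eil1 replicate 2, 221 without ein3 eil1 replicate 1 and 222 without wild type replicate 1. The limma test called 11 probe sets higher (0.0783% of those tested) and 30 lower (0.214%) in ein3 eil1. In either direction that was 0.292%, and 6.19% had an unadjusted p under 0.05. The counts depended on the setting, with 59 higher and 36 lower under the deposited scaling, 187 and 225 with the title pair as a block, and 166 and 137 without wild type replicate 1. By size, 259 probe sets (1.84%) were at least 2-fold higher without overlap between the genotypes, and 266 (1.89%) were at least 2-fold lower. Both COR15 genes are among those 259, which describes the choice of the pair and supports nothing.

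**Figure D2:**
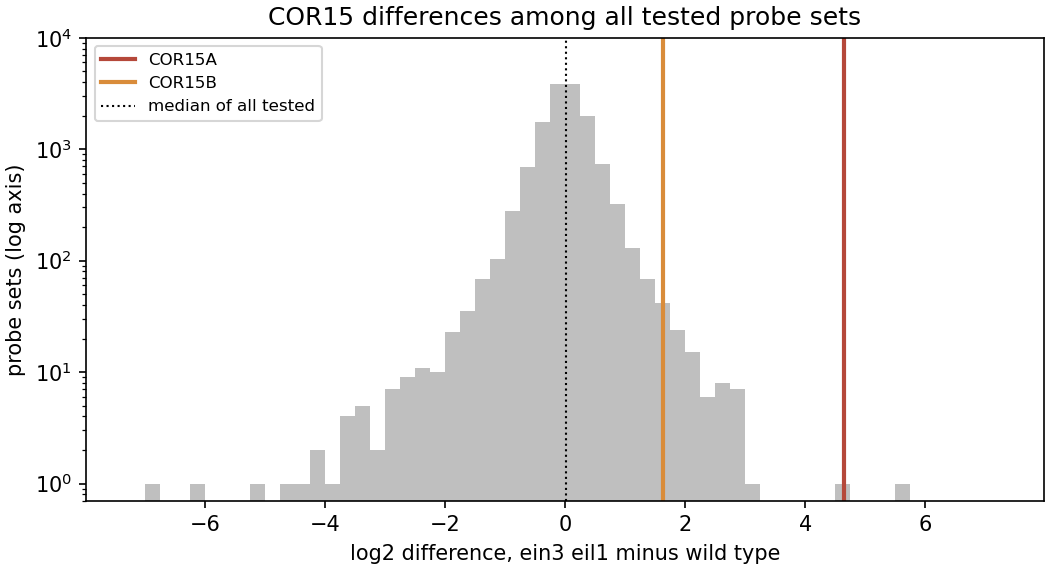
Histogram of the log2 difference, ein3 eil1 minus wild type, over all 14047 tested probe sets, with the number of probe sets on a log axis. Vertical lines mark COR15A at 4.65, at the sparse right end, COR15B at 1.64, in the right shoulder, and the median of all tested probe sets at 0.01.

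The genes around the pair were compared next, using the 10 RefSeq genes on each side. Of these 20 genes, 5 had a named probe set, 3 were tested, and 0 were called in either direction (0 with an unadjusted limma p under 0.05). At shares of 0.292% and 6.19% over all probe sets, such counts say little of so few genes. AT2G42520, which directly precedes COR15B, had deposited signals of 223 and 308.2 in ein3 eil1, against 201.5 and 150.6 in wild type. Its normalised difference was 0.18 (SE 0.30, limma adjusted p = 0.9996). It was 0.58 under the deposited scaling, where the median of all tested probe sets was 0.40. The genotypes overlapped after normalisation but not in the deposited signals. AT2G42490 differed by 0.08 (SE 0.31) and TBL39, of a family of cell wall polysaccharide acetyltransferases, by -0.15 (SE 0.41). Under the deposited scaling TBL39 stood at 0.28, below the median of 0.40 over all tested probe sets. The median of the 3 was 0.08, against 0.01 for all tested probe sets.

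The nearest gene with a named probe set on the COR15A side was AT2G42560, the second gene beyond COR15A. It was too dim to be tested, with deposited signals of 2.4 and 1.7 in ein3 eil1, against 0.8 and 1.7 in wild type. AT2G42480 was also too dim, with 14.2 and 1 in ein3 eil1, against 2.4 and 6.4 in wild type. AT2G42550, which lies between COR15A and AT2G42560, had no named probe set and was not analysed here.

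**Figure D3:**
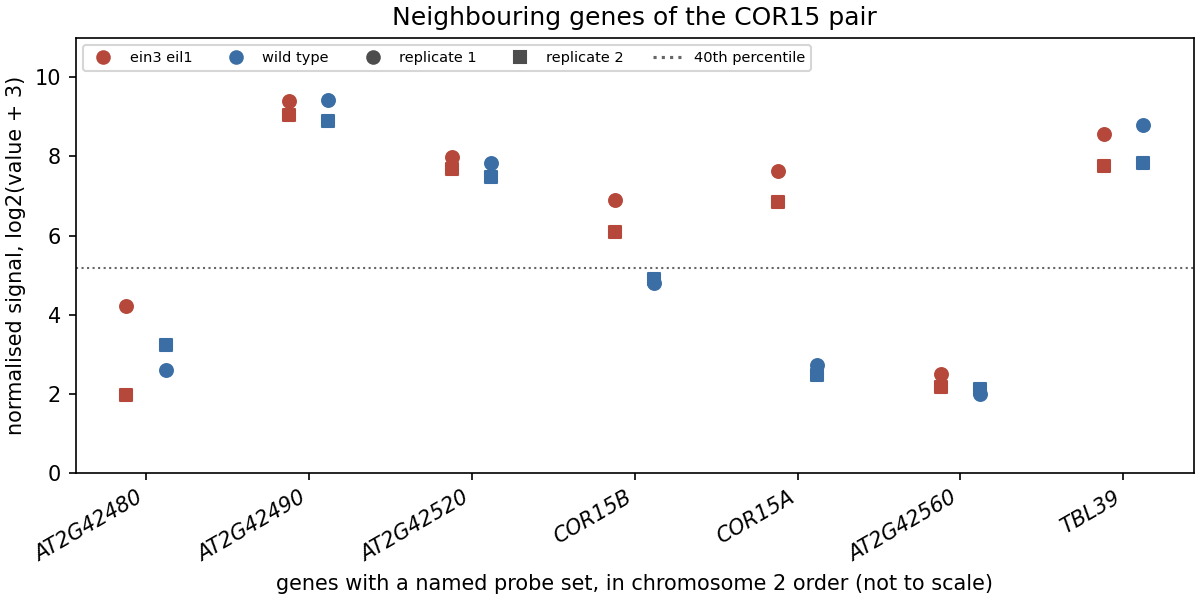
Normalised signal, log2(value + 3), of every gene with a named probe set among the 10 on each side of the COR15 pair, in chromosome order and not to scale. Red points are ein3 eil1 and blue points wild type, circles replicate 1 and squares replicate 2, and the dotted line is the 40th percentile. The colours separate for COR15B and COR15A, while those of AT2G42480, AT2G42490, AT2G42520 and TBL39 overlap. Those of AT2G42560, too dim to be tested, also separate, narrowly (2.50 and 2.17 in ein3 eil1, against 2.01 and 2.13 in wild type).

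Few other cold-regulated genes could be read, and their differences were smaller than those of the pair. Of 36 genes on that list besides the pair, 5 had a named probe set, 4 could be tested, and 0 of the 4 were called in either direction, against 0.292% of all probe sets (0 with an unadjusted limma p under 0.05, against 6.19%). With 4 genes these counts cannot be told from that background. All 4 differences were positive, with a median of 0.47, against 0.01 for all tested probe sets. The median was 0.78 in pair 1 and 0.14 in pair 2.

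COR47, a dehydrin of the same cold regulon, was bright in both genotypes. It had 5832.3 and 13004 in ein3 eil1, against 4884.9 and 8400.8 in wild type, which overlapped, and its normalised difference was 0.13 (SE 0.31, limma adjusted p = 0.9996). LTI30, another low-temperature-induced dehydrin, had 688.2 and 1823.6 in ein3 eil1, against 308 and 970 in wild type. Its difference was 0.62 (SE 0.53, limma adjusted p = 0.9996), 1.19 in pair 1 and 0.06 in pair 2. In both dehydrins replicate 2 was the brighter array of each genotype, by more than the genotypes differed.

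COR27, a cold- and clock-regulated gene, had 200.9 and 52.4 in ein3 eil1, against 63.7 and 29.9 in wild type. Its difference was 0.90 (SE 0.74, limma adjusted p = 0.9996), 1.58 in pair 1 and 0.22 in pair 2, and rested on 1 array. Without ein3 eil1 replicate 2 it was called at 2.16 (limma adjusted p = 0.0014), and without ein3 eil1 replicate 1 it was -0.36. ZAT10, a zinc-finger repressor of stress responses, differed by 0.31 (SE 0.53). AT4G33980, listed as COR28, was too dim to be tested, with 55 and 19.9 in ein3 eil1, against 27.7 and 1.8 in wild type.

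Regulators upstream of the cold regulon were thinly covered. Of 42 genes, 3 had a named probe set, 2 could be tested, and 0 were called (0 with an unadjusted limma p under 0.05), again against 0.292% and 6.19% of all probe sets. SIZ1, a SUMO ligase that stabilises the CBF activator ICE1, had 328.4 and 481.3 in ein3 eil1, against 315.9 and 277.7 in wild type. It differed by -0.01 (SE 0.28). Under the deposited scaling SIZ1 stood at 0.42, against a median of 0.40 over all tested probe sets. Under median centring it stood at 0.05, against a median of 0.04. GI, a circadian clock gene, had 662.5 and 540.7 in ein3 eil1, against 600.5 and 307.9 in wild type, and differed by 0.07 (SE 0.42). CES, a transcription factor of the brassinosteroid pathway, was too dim to be tested.

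Other LEA and dehydrin genes were better covered. Of 23, 15 had a named probe set and 8 could be tested, COR47 and LTI30 included. In either direction 0 were called, with 1 at an unadjusted limma p under 0.05, against 0.292% and 6.19% of all probe sets. With 8 genes these counts cannot be told from those shares. Of the 8 differences 6 were positive and 2 negative, with a median of 0.11. LEA18 had the largest difference. LEA18 had deposited signals of 53.3 and 88.9 in ein3 eil1, against 11.7 and 28 in wild type, so the genotypes did not overlap. Over all tested probe sets 1.84% were at least 2-fold higher without overlap. Its difference was 1.46 (SE 0.48, limma adjusted p = 0.54), 1.93 in pair 1 and 0.99 in pair 2. LEA4-5 (0.09), AT3G15670 (0.09) and AT3G17520 (0.27) differed by less than their SEs, which ran from 0.56 to 0.67, and each had opposite signs in the pairs. The dehydrin HIRD11 (-0.06) and LEA26 (-0.08) also had opposite signs in the pairs. Both were positive under the deposited scaling (0.32 and 0.30), but below the median of 0.40 over all tested probe sets there.

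A search of RefSeq names for words of cold, dehydration and LEA proteins, made after the values were seen, gave 85 genes besides the pair. Of these, 11 had a named probe set, 10 could be tested, and 0 were called (1 with an unadjusted limma p under 0.05, LEA18 again), against the same 0.292% and 6.19%. It added 3 tested genes to those above. LEA4-1 had 49.9 and 91.9 in ein3 eil1, against 34.7 and 30.7 in wild type, a difference of 0.67 (SE 0.37, limma adjusted p = 0.95). Its genotypes did not overlap, but the share of all probe sets without overlap below 2-fold was not counted. With 2 arrays per genotype such a lack of overlap says little. SRC2, named for a cold-regulated gene of soybean, differed by -0.24 (SE 0.28). Under the deposited scaling it differed by 0.16, below the median of 0.40 over all tested probe sets. LEA27 (AT2G46140) differed by -0.41 (SE 0.32).

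**Figure D4:**
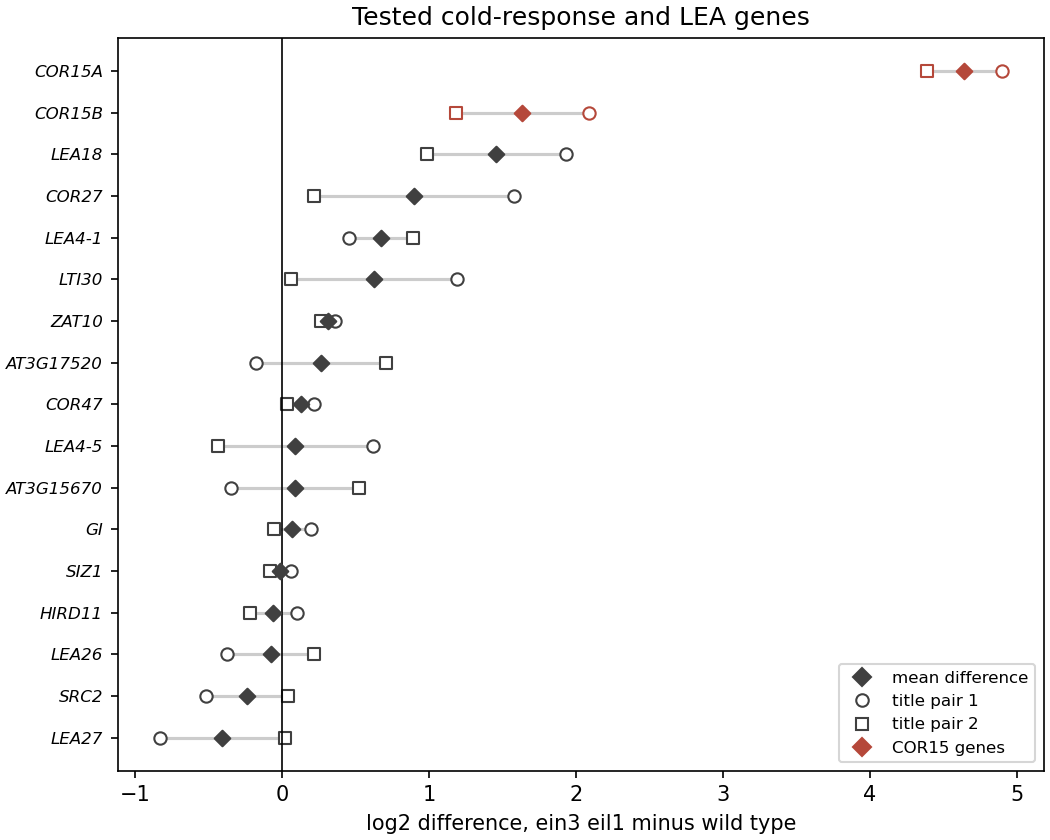
Log2 difference, ein3 eil1 minus wild type, of every tested gene of the cold-regulated, upstream cold signalling, LEA and dehydrin, and name-word lists, in order of size. Diamonds are mean differences, open circles and squares are the differences in title pairs 1 and 2, and red marks the COR15 genes; COR15A at 4.65 stands apart, and the next gene after COR15B is LEA18 at 1.46.

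The 21 genes of the abscisic acid and drought list and the 11 of the seed maturation list, which marks the seed, another state rich in LEA proteins, had no named probe set, so they were not analysed here. No value for the genes of the seed maturation list can therefore be set beside the COR15 result. Whether the LEA signals given above are remaining seed transcripts was not tested.

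The genes whose profile over the 4 arrays was most like that of COR15A were found by the Euclidean distance between mean-centred normalised signals, over 7436 named genes. With 4 arrays such likeness is a description. The nearest were AT4G26790 (distance 1.72), AT5G37990 (1.75), AT4G28780 (1.90), AT2G16005 (1.92), AT3G21670, of the NRT1/PTR transporter family (2.08), and AT3G45160 (2.27). AT5G37990, the gene with a larger difference than COR15A, had 137.6 and 506.3 in ein3 eil1, against 0.7 and 2.7 in wild type. Its difference was 5.68 (SE 0.56, limma adjusted p = 0.0067), a call lost with the stricter filter and without ein3 eil1 replicate 2. AT3G21670 had 283 and 497.6 in ein3 eil1, against 51.9 and 36.1 in wild type, a difference of 2.67 (SE 0.31, limma adjusted p = 0.013), and AT2G16005 differed by 2.82 (SE 0.42, limma adjusted p = 0.042). Both calls were lost without a filter, and that of AT2G16005 also without a variance trend. The other 3 did not pass, with differences from 2.43 (AT3G45160) to 3.00 (AT4G26790) and limma adjusted p from 0.16 to 0.40. With the title pair as a block AT4G28780 passed (limma adjusted p = 0.029), and AT4G26790 (0.096) and AT3G45160 (0.18) did not. All 6 genes were taken for a profile like that of COR15A, so a rise in ein3 eil1 was largely fixed by that choice. COR15B held place 29 in this order, at a distance of 3.02, since its difference was smaller.

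COR15B had closer matches, as its difference was of a more common size. UGT84A3, a UDP-glucosyltransferase, lay at a distance of 0.23, with 71.2 and 68.4 in ein3 eil1, against 18.2 and 21 in wild type, and differed by 1.43 (SE 0.46, limma adjusted p = 0.52). AT3G15760 (0.33), P1R1 (0.38), AT1G54740 (0.39), AT1G62510 (0.45) and AT5G07800 (0.47) followed. Their differences ran from 1.30 (AT5G07800) to 1.86 (AT1G62510), and with limma adjusted p between 0.12 and 0.54 they did not pass the threshold. With the title pair as a block 4 of the 6 passed, AT1G62510 (limma adjusted p = 0.0014), P1R1 (0.0018), AT3G15760 (0.0051) and AT1G54740 (0.0077). UGT84A3 (limma adjusted p = 0.12) and AT5G07800 (0.14) did not. That block called 187 of all 14047 tested probe sets higher and 225 lower. All 6 genes were taken for a profile like that of COR15B, so a rise in ein3 eil1 was largely fixed by that choice. COR15A held place 7313 of 7436 in the order for COR15B. Over the 4 arrays the COR15 profiles had a Pearson correlation of 0.97, which the genotype contrast that chose them largely fixes.

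**Figure D5:**
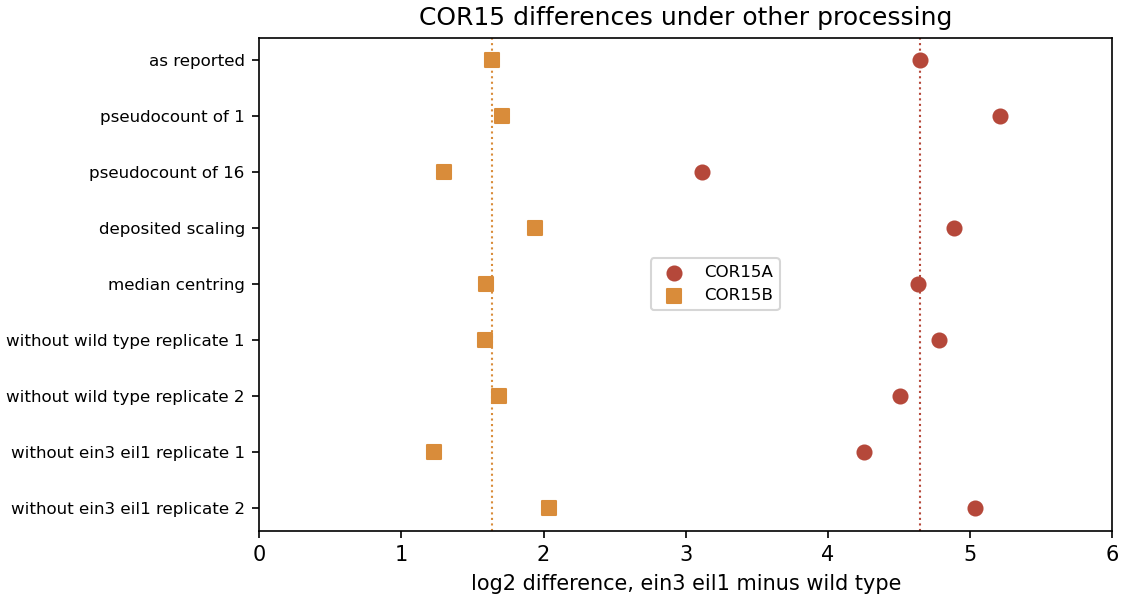
Log2 difference, ein3 eil1 minus wild type, of COR15A (circles) and COR15B (squares) as reported and under 8 other ways of processing, with dotted lines at the reported 4.65 and 1.64. Every value was positive, COR15A moved most with the added constant (from 3.12 to 5.21), and COR15B ran from 1.23 to 2.04 when arrays were left out.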

How the data were processed

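The values deposited by the authors are linear signal intensities, 1 for each probe set on each array. Per the submitters' processing notes the tool was MAS5. The sources used here state no version, scaling target, probe sequences or detection calls. Of 22810 probe sets, 64 controls were left out. From the intensities, log2(value + 3) was computed (3 being the rounded 10th percentile of all values, 2.7) and quantile normalised in R 4.3.3 with limma 3.58.1. The genotypes were compared with limma (mean-variance trend, two-sided, Benjamini-Hochberg over 14047 tested probe sets, threshold 0.05). The code was run on simulated data with independent noise of the same SD for every probe set. Unlike these arrays, such data have no title pairs, so the run says nothing of how the calls hold here. The labels number no replicates, so the fit has no block, and p-values measure the spread between these arrays. The titles call 1 array of each genotype a biological rep, and how much of that spread is technical is unknown.

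The platform annotation named 13513 probe sets for 1 gene and 503 for several, the rest being unnamed here. Of the 13513, 13436 matched a RefSeq gene (TAIR10.1). A gene was represented by its probe set of highest mean. RefSeq was used for names and gene order only, as no build is named for the array.

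The members and gene lists were chosen with earlier results of these data known. Named besides the pair were EIN3, the tested list members by size of difference, every neighbour with a probe set, and the 6 genes of nearest profile for each COR15 gene. AT4G33980, AT2G42560 and other dim genes were named after their values were seen. Alternatives varied the added constant, the filter, the scaling and the variance model, left out each array, or took the title pair as a block. Figures were drawn with matplotlib 3.10.9.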

Additional observations from a re-analysis of the deposited data

How the results depend on the processing

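The differences of COR15A and COR15B were positive under every setting that gave a value. COR15B was too dim for the stricter filter at the 60th percentile, which among its arrays only ein3 eil1 replicate 1 reached (percentile 65.1). That of COR15A moved by more than the replicate SD of 0.41 with 1 added (5.21) and 16 added (3.12). Without each array in turn it ran from 4.26 to 5.03, and that of COR15B from 1.23 to 2.04. The total of 41 called probe sets became 14 without a filter, 95 under the deposited scaling, 62 with median centring and 131 to 303 without 1 array (303 without wild type replicate 1, 135 without wild type replicate 2, 131 without ein3 eil1 replicate 1, 181 without ein3 eil1 replicate 2). With the replicate block (title pairs) it was 412, 187 higher and 225 lower. The deviations of same-titled arrays from their genotype means correlated at 0.42 over tested probe sets, from 2 pairs only. The cause of these changes was not tested. In the cold-regulated list and the name-word list the number called was 0 to 1 without 1 array, the 1 being COR27 without ein3 eil1 replicate 2. The number called in the other lists stayed at 0 under all settings that gave a value, the block included. Over the tested genes named besides the pair, counting each under each setting, 34 values passed the threshold that had not done so as reported, and 6 no longer passed. The negative ones among the newly passing values were all of PORB. The positive ones, COR27 apart, were of genes picked for a rise like that of the pair or as neighbours both higher. Their direction follows from that choice and is no result. Over all tested probe sets 11 were called higher and 30 lower as reported.

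Some differences changed sign, those of LTI30 (0.62) and COR27 (0.90) among them. Without 1 array in turn they ran from -0.28 to 0.54 for COR47, -0.27 to 1.52 for LTI30, -0.36 to 2.16 for COR27, -0.16 to 0.79 for ZAT10, -0.10 to 0.080 for SIZ1, -0.45 to 0.59 for GI, -0.96 to 1.14 for LEA4-5, -0.74 to 0.92 for AT3G15670, -0.58 to 1.11 for AT3G17520, -0.53 to 0.42 for HIRD11, -0.59 to 0.44 for LEA26, -0.54 to 0.060 for SRC2, -0.18 to 0.34 for AT2G42490, -0.79 to 0.76 for ICL, -0.15 to 0.11 for PYK10 and -0.62 to 0.33 for TBL39. The deposited scaling turned SIZ1 (0.42), LEA26 (0.30), HIRD11 (0.32), SRC2 (0.16), ICL (0.42), PYK10 (0.28) and TBL39 (0.28), and median centring turned SIZ1 (0.054) and ICL (0.048). The median of all tested probe sets was 0.40 under the deposited scaling and 0.038 under median centring. The turned signs are of values from which that median was not taken off. None of these turned values passed the threshold. The number of arrays, 2 per genotype, limits every value, and the wild-type COR15A signal is too dim to fix the size of its difference.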

Other observations

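Neighbouring genes that were both higher were few among the named genes, a count chosen after the values were seen. Of 1880 pairs of RefSeq neighbours with both genes tested, 2 had both genes at least 2-fold higher in ein3 eil1 without overlap between the genotypes, and 0 had both at least 2-fold lower. The first is COR15B and COR15A, which were chosen with their differences in view. The other is AT1G30250 and AT1G30260 on chromosome 1, with differences of 2.82 and 1.16. Of the 7437 named genes tested, 132 were higher and 136 lower by the same rule.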
